A study of Mus musculus with 24 samples.

Results

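Wounds from 24 mice were ordered by how much skeletal muscle RNA they held, regardless of the bandage they had received, and the 6 wounds richest in muscle transcripts were compared with the 6 poorest. The wounds were chosen by a muscle score measured in these same libraries, the mean over 6 genes (Acta1, Ckm, Myh4, Tnnt3, Mylpf and Casq1) of log2(CPM + 1), where CPM is the gene's counts per 1000000 counts of the library. The 12 wounds between the 2 sets belong to neither. Because measured values of muscle genes chose the sets, differences of muscle genes between the sets are given as descriptions only, and the question put to the data is which genes other than those of the sarcomere go with the difference in tissue.

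All mice were male, 17.5 weeks old at collection, of the C57BLKS/J strain and of the genotype Lepr (db/db), a leptin receptor mutation that makes mice obese and diabetic. A full-thickness wound 6 mm across was punched in the back skin at 16 weeks and covered with an alginate bandage, which was renewed on day 3, and the dorsal wound was taken on day 10. The bandage held no conditioned medium in the control group (Ctrl, 6 mice), or medium conditioned by primary macrophages that were M0 (CM0, 4), M1 (CM1, 4), M2a (CMA, 5) or M2c (CMC, 5) polarised. Every wound analysed here carried a bandage and came from a db/db mouse, and the labels do not say how deep the tissue was taken or where on the back each wound lay. Libraries held 7267879 to 11985292 counts, with 7267879 to 9679936 in the rich set and 8365530 to 9777258 in the poor set. Defining genes of wounded skin were present in every library, with Krt14, a keratin of basal epidermis, at 1305 to 4427 CPM and Col1a1, a collagen of granulation tissue, at 20338 to 38065 CPM.

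Mouse skin, unlike most human skin, lies on a thin sheet of striated muscle, the panniculus carnosus, and a full-thickness wound cuts through it. Its fibres are mostly of the fast type. In a fast fibre, actin and myosin filaments slide past each other when calcium leaves the sarcoplasmic reticulum through the ryanodine receptor, calcium pumps such as Atp2a1 take it back up, and creatine kinase and glycogen breakdown supply ATP. A damaged fibre is rebuilt from satellite cells, which turn on Myod1 and Myog and then embryonic and perinatal myosins before the adult ones.

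Genes of muscle fibres are known to share short promoter elements: the E-box bound by MyoD-family factors, the MEF2 element and the CArG element bound by serum response factor. The 250 bases before the RefSeq start of 5 of the 6 score genes are shown (GRCm38.p6, 5′ to 3′), because these genes set the order of the wounds; capitals mark matches to CANNTG, MEF2 or CArG on either strand. All coordinates are on this build.
Acta1, chr8:123894776-123895025, minus strand: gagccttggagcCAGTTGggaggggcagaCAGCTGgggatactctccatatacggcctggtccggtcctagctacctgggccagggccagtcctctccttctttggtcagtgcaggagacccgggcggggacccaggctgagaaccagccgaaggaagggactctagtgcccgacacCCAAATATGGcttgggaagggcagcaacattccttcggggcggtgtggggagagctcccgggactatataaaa
Ckm, chr7:19410844-19411093, plus strand: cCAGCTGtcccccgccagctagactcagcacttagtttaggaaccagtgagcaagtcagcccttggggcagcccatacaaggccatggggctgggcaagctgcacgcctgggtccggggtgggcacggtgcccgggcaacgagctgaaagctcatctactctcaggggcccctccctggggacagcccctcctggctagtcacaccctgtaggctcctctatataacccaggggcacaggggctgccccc
Myh4, chr11:67237562-67237811, plus strand: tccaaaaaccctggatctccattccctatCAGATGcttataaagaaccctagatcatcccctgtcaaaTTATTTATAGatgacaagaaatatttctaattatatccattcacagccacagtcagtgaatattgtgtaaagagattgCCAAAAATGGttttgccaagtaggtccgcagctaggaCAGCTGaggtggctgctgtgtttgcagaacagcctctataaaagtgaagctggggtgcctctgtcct
Mylpf, chr7:127211358-127211607, plus strand: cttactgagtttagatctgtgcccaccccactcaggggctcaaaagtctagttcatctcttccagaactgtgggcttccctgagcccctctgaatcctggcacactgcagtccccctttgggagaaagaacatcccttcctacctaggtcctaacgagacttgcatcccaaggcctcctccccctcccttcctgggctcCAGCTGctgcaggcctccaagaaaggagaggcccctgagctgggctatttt
Casq1, chr1:172219896-172220145, minus strand: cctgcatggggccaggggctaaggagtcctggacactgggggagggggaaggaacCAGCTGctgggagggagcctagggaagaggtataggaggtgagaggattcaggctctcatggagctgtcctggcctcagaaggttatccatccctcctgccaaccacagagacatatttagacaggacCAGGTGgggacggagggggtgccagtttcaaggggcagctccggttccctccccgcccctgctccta
Each of the 5 stretches held the E-box form CAGCTG, 1 time. Every CAGCTG is also a CANNTG. In Mylpf it began 51 bases before the start and in Myh4 67 bases before, whereas in Ckm it began 249 bases before, at the far edge of the window. A CArG element stood at 73 bases before the start of Acta1 and at 104 before that of Myh4, and Myh4 alone of the 5 held a MEF2 element in this window. Among 32841 RefSeq promoter windows of the same length, 13% held CAGCTG, 66.2% CANNTG, 2.92% MEF2 and 1.47% CArG. Among the 408 windows of genes called higher in the rich wounds, 20.8% held CAGCTG, 72.8% CANNTG, 9.56% MEF2 and 2.70% CArG. Of 14787 windows of all tested genes 12.7%, 59.2%, 1.75% and 1.17% did. The genes called higher include 91 of the muscle lists, so a surplus of muscle elements among them follows in part from the choice of sets. These matches describe letters in a window and were not tested as sites.

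The score ran from 10.03 in Ctrl replicate 4 to 6.99 in CMA replicate 1. The rich set was Ctrl 4 (10.03), CM0 2 (9.54), Ctrl 2 (9.20), CMC 4 (8.71), CMC 2 (8.54) and CMA 2 (8.45). The poor set was CMC 1 (7.66), CM0 3 (7.62), CM1 1 (7.45), CMA 3 (7.39), CMC 3 (7.35) and CMA 1 (6.99). Neither edge was a gap: the first library outside the rich set, Ctrl 3, scored 8.32. The first above the poor set, Ctrl 5, scored 7.67, next to 7.66 inside it. With CPM after TMM scaling, 6 of the 6 rich and 5 of the 6 poor libraries kept their set. The same numbers held with the fast sarcomere list, described below, in place of the 6 genes. Within the rich set 3 libraries stood well above the other 3. All genes of the 8 muscle lists together (133 genes) took 2.37% to 4.37% of the counts in the rich libraries, 1.15% to 2.54% in the middle ones and 0.833% to 1.65% in the poor ones. In bulk tissue, fewer fibres and less RNA per fibre cannot be told apart.

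Bandage and muscle content could be compared, since the order ignored the bandage. Ctrl wounds had a median score of 8.32 (7.67 to 10.03), CM0 wounds 8.28 (7.62 to 9.54), CMC wounds 8.09 (7.35 to 8.71), CMA wounds 7.90 (6.99 to 8.45) and CM1 wounds 7.83 (7.45 to 8.28). The ranges of all 5 groups overlapped. A permutation test over the 24 libraries found no difference among the groups beyond their spread (F = 1.41, p = 0.266). Against Ctrl (8.59 ± 0.868, SD, n = 6) the mean score differed by -0.16 for CM0, -0.74 for CM1, -0.82 for CMA and -0.52 for CMC, with exact two-sided permutation p of 0.752, 0.0952, 0.108 and 0.290 and adjusted p of 0.752, 0.216, 0.216 and 0.387 over the 4 comparisons. With 4 or 5 wounds against 6 the smallest possible exact p is 0.00952 or 0.00433. Without Ctrl 4 the CM0 difference was 0.13, and without CM0 3 it was 0.11, both of opposite sign. The sets were nevertheless uneven in bandage: 2 Ctrl, 1 CM0, 0 CM1, 1 CMA and 2 CMC wounds were rich, and 0 Ctrl, 1 CM0, 1 CM1, 2 CMA and 2 CMC wounds were poor.

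**Figure D1:**
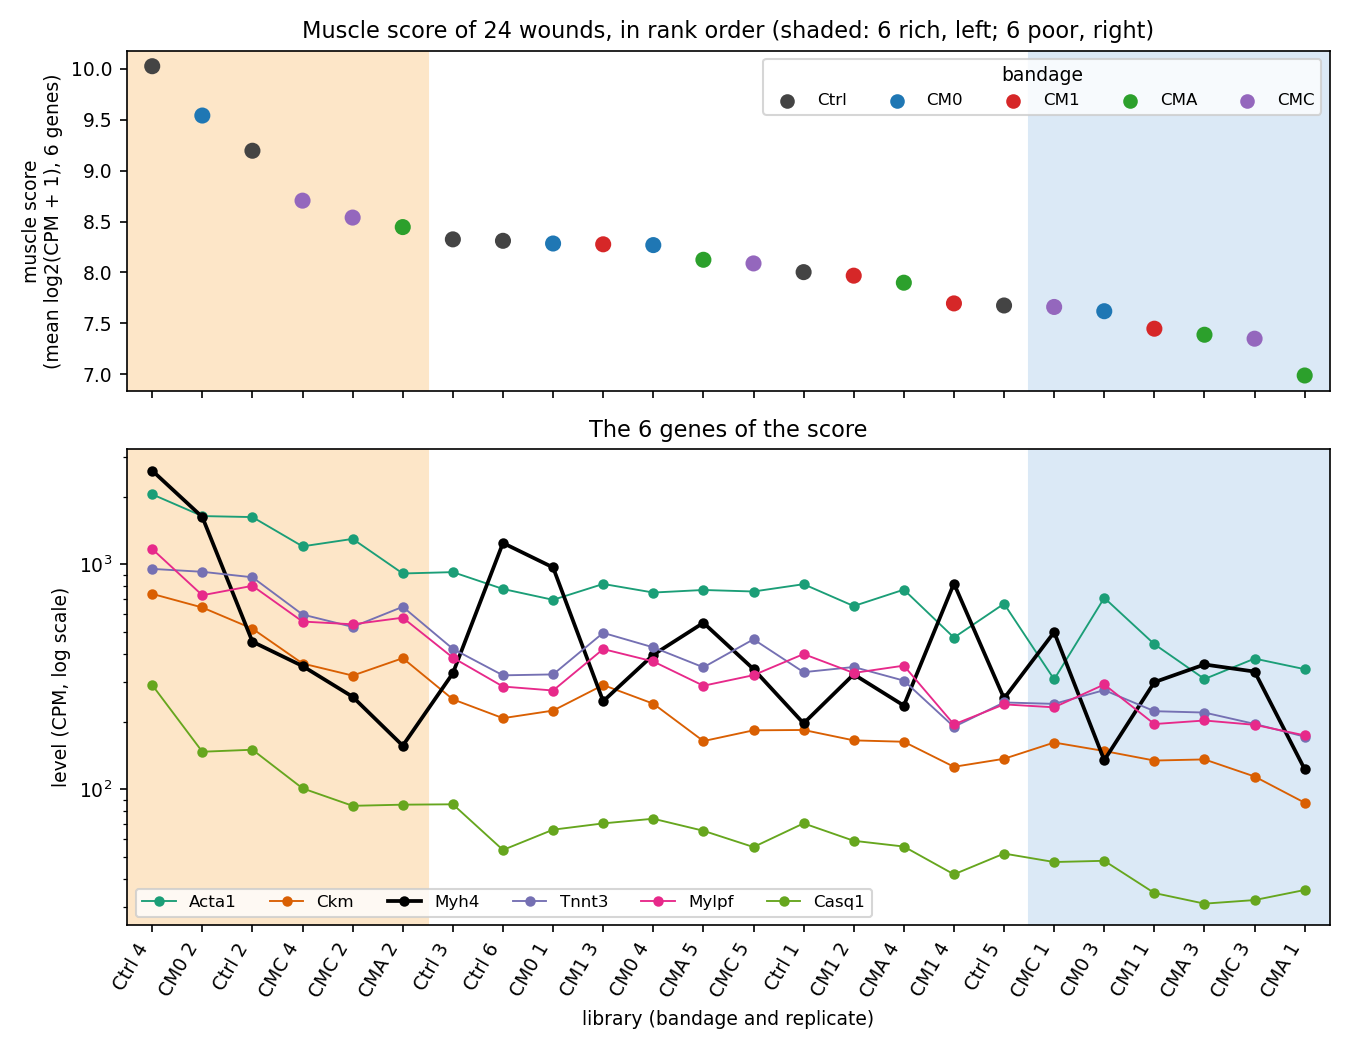
The upper panel gives each library's muscle score (mean log2(CPM + 1) of 6 genes) in rank order, coloured by bandage; the lower panel gives the CPM of the 6 genes on a log axis, with the 6 rich libraries shaded on the left and the 6 poor ones on the right. Acta1, Ckm, Tnnt3, Mylpf and Casq1 fall together from left to right, whereas Myh4 (thick black line) jumps between 123 and 2608 CPM.

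The 6 score genes were not equal witnesses. Acta1, the actin of the thin filament of skeletal muscle, lay at 911 to 2046 CPM (median 1459.6) in the rich libraries and 308 to 709.9 CPM (median 362) in the poor ones. Ckm, the muscle creatine kinase, lay at 320.4 to 739 CPM (median 450.3) against 87.3 to 162 CPM (median 135). Neither pair of ranges overlapped. Tnnt3, the fast troponin T, Mylpf, the fast regulatory light chain, and Casq1, the calcium buffer of the sarcoplasmic reticulum, were also separate between the sets, with medians of 762 and 221, 654 and 199, and 124 and 35.2 CPM. Myh4, the myosin heavy chain of type 2B fibres, went its own way, at 156 to 2608 CPM (median 403) in the rich and 123 to 499.9 CPM (median 317) in the poor libraries. Its sets overlapped almost entirely, and only Ctrl 4 and CM0 2 stood clear of the poor range. Over the 24 libraries Myh4 correlated with the mean of the other 5 genes at r = 0.43, while each of the other 5 did so with its own remainder at r = 0.88 to 0.95, a description only since all 6 make the score. Ctrl 4 was highest for all 6, and CMA 1 was lowest for Ckm, Myh4, Tnnt3 and Mylpf. The span from lowest to highest library was 21.2-fold for Myh4 and 5.56-fold to 9.36-fold for the others.

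Myosin isoforms mark fibre types, and their balance per kilobase of annotated exons varied within each set. This length joins all annotated exons of a gene, and was 11.8 kb for Myh8 against 6.02 kb for Myh4, 6.35 kb for Myh1 and 6.06 kb for Myh3. The share of Myh8 is therefore smaller than a shorter length would give. Myh1, the 2X myosin, reached 1873 to 3624 CPM (median 2138) in the rich and 350.1 to 1066 CPM (median 663) in the poor libraries and separated the sets. Myh2, the 2A myosin, had medians of 221 and 48.1 CPM, with ranges that overlapped. Of the summed CPM per kb of Myh4, Myh1, Myh2, Myh7, Myh3 and Myh8, Myh1 held 46.1% to 82.5% in the rich libraries (median 74.8%), 27.7% to 75.7% in the middle (68.2%) and 36.8% to 72.4% in the poor (58.6%). Myh4 held 7.28% to 47.1% in the rich libraries (median 11.7%), 10.8% to 60.7% in the middle (16.7%) and 9.52% to 54.1% in the poor (28.8%). Myh4 exceeded Myh1 per kb in 6 of the 24 libraries: 1 rich (Ctrl 4), 3 middle (Ctrl 6, CM0 1 and CM1 4) and 2 poor (CMC 1 and CMA 3). So wounds of like muscle content ranged from mostly 2X to mostly 2B myosin. Myh7, the slow myosin, was near 0, at no more than 0.723 CPM in any library. The myosin genes other than Myh7 are near-identical in long stretches and lie side by side on chromosome 11. How reads were split between them is therefore uncertain.

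**Figure D2:**
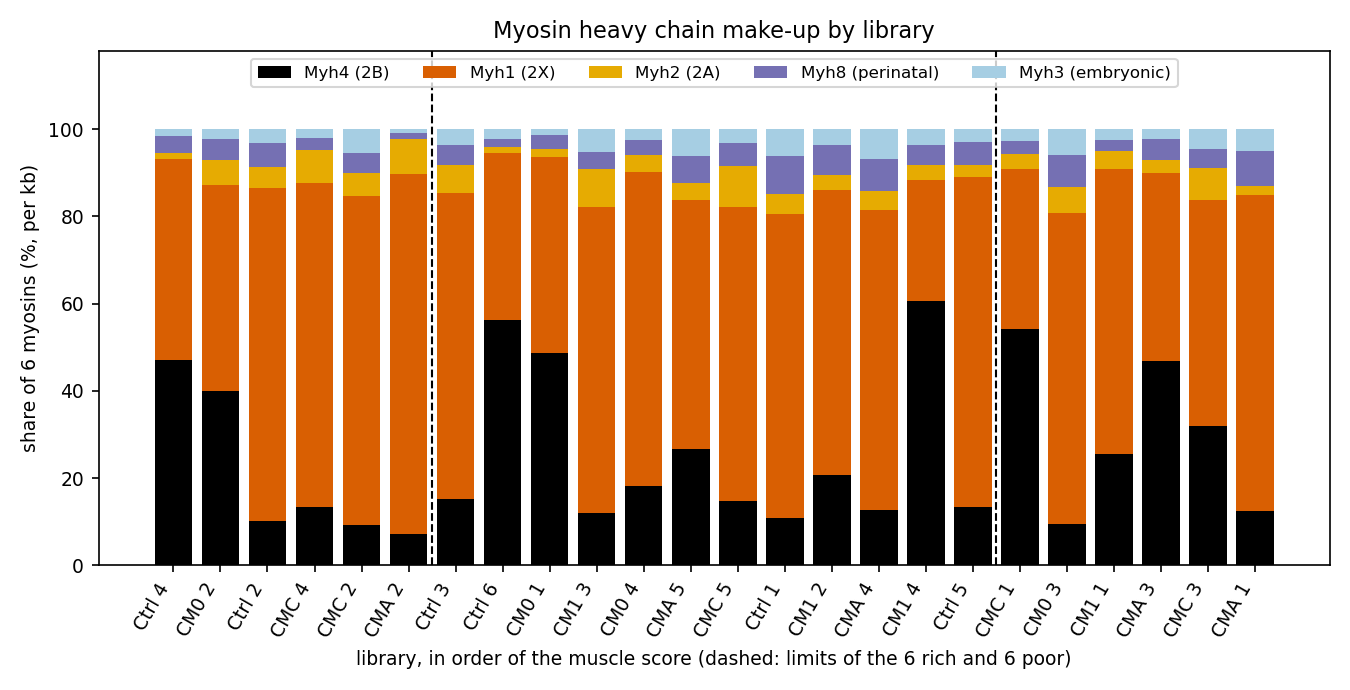
Bars give the share (%) of each myosin heavy chain in the summed CPM per kb of 6 myosins for each library, in order of the muscle score; Myh7 is included but too low to be seen. The black part (Myh4) reaches 47.1% among rich, 60.7% among middle and 54.1% among poor libraries, and Myh8 with Myh3 takes 2.34% to 14.8%.

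Because the balance of 2B and 2X myosin varied apart from muscle content, a slope on the log2 ratio of Myh4 to Myh1 per kb was fitted over all 24 libraries, with the level of the other 5 score genes as a covariate. This fit was chosen after the ratio had been seen, and its ratio includes Myh4, a score gene, so slopes of muscle genes are given without a p. The ratio ran from 0.0882 to 2.19 and correlated with that level at r = -0.21. Leaving out Myh4 and Myh1, 6 of 18976 genes passed in edgeR (0.0316%), all lower where the ratio was higher. Myoz2, a calsarcin of slow fibres' Z-discs, ranged from 2.29 CPM in CMC 1 to 30.4 in Ctrl 2 and had a slope of -0.38 (SE 0.0592). Xirp2, an actin-binding protein of damaged and loaded fibres, had a slope of -0.27, and Csrp3, a stretch-responsive LIM protein of the Z-disc, one of -0.28. The others were Ptger3, a prostaglandin receptor, Tmem45a2 and Gm44899. DESeq2 called 54 genes (0.286%), 13 higher and 41 lower, including 5 of the 6. Without the 2 libraries whose ratio was farthest from the median, CM1 4 and Ctrl 6, edgeR called 0 genes. At an unadjusted p under 0.05 there were then 1005 genes, against 1976 with all 24 libraries.

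Across the fibre's machinery the rich libraries were higher in nearly every gene. In the comparison of the 6 rich with the 6 poor libraries by edgeR, 427 of 17168 genes passed an adjusted p of 0.05 as higher in the rich wounds, which is 2.49% of those tested, and 72 passed as lower, which is 0.419%, so 2.91% passed in either direction. The muscle lists that follow include the score genes and others that vary with them, so their direction follows from the choice of sets and is a description. Over all genes the median log2 fold change was -0.01. Of the fast sarcomere list, which holds 4 of the 6 score genes, 29 of 29 tested members were higher, with a median log2 fold change of 1.71. Ttn, the giant spring of the sarcomere, lay at 9542 to 19444 CPM (median 14946) against 2673 to 7535 CPM (median 4177). Neb, the ruler of the thin filament, had a log2 fold change of 1.57. Slow and cardiac isoforms followed, with 8 of 8 tested members higher and a median of 1.41. Mybpc1, the slow myosin-binding protein C, lay at 232 to 474 CPM (median 299) against 61.6 to 153 CPM (median 86.7), with no overlap, although Tnni1, the slow troponin I, overlapped.

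Calcium handling and energy supply kept pace with the filaments. Of the excitation and calcium list 20 of 20 tested members were higher (median log2 fold change 1.5). Atp2a1, the calcium pump of fast fibres, lay at 499.7 to 1226 CPM (median 814) against 175 to 349 CPM (median 205), with separate sets. Pvalb, a calcium buffer of the fastest fibres, lay at 92 to 457 CPM (median 131) against 37.9 to 102 CPM (median 45.9), with sets that overlapped. Of the muscle energy enzymes 24 of 24 were higher (median 1.48), among them Eno3, the muscle enolase (1.79), Pygm, the muscle glycogen phosphorylase (1.74), and Pfkm, the muscle phosphofructokinase (1.35).

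Genes of the membrane, the nerve contact and the nucleus differed less. Of the membrane and dystrophin list 16 of 17 were higher, with a median log2 fold change of 0.84. Dmd, which encodes dystrophin, had one of 1.08, whereas Dag1, the dystroglycan that epithelia also make, had one of 0.20, and Dysf, a membrane repair protein, one of -0.06. Of the neuromuscular junction list 11 of 11 tested members were higher (median 0.74), among them Ache, the acetylcholinesterase, at 22.9 to 43.1 CPM (median 28.7) against 13.5 to 20.4 CPM (median 18.3). Among muscle transcription factors 11 of 13 were higher (median 0.61), among them Myf6 (1.16), Mef2c (0.74), Smyd1 (1.73) and Ppargc1a (1.44). Mef2a and Mef2d, which many other cells express, had log2 fold changes of -0.01 and 0.15.

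Most genes of rebuilding fibres did not pass, although 9 of 10 were higher in the rich wounds. From here on the lists hold genes that the score did not use, and an adjusted p is that of edgeR over all 17168 genes. Outside the muscle lists 336 of 17046 genes passed as higher (1.97%) and 72 as lower (0.422%). Where such a gene is also expressed in fibres, its difference follows in part from the choice of sets. Its adjusted p is then no evidence about tissue other than muscle. Of the embryonic and regenerating list 1 of 10 members rose, Xirp1, an actin-binding protein of intercalated discs and repairing fibres, at 20.3 to 37.2 CPM (median 27.9) in the rich and 5.64 to 17.6 CPM (median 10.6) in the poor libraries (log2 fold change 1.27, SE 0.269, adjusted p = 0.0213). Its call was lost without Ctrl 2 (adjusted p = 0.0574) or without CMA 1 (0.0579), and without the filter on low counts (0.0858). Myh8, the perinatal myosin, lay at 58.3 to 474 CPM (median 315) in the rich and 52.8 to 205 CPM (median 79.7) in the poor libraries, and Actc1, the cardiac actin that new fibres express, at 8.65 to 109.8 CPM (median 51.4) against 7.32 to 32.8 CPM (median 14.8). Both overlapped between the sets and did not pass (adjusted p = 0.205 and 0.195). Myog, the factor that drives myoblast fusion, lay at 3.72 to 25.6 CPM (median 11.7) against 1.88 to 12.2 CPM (median 6.31) (adjusted p = 0.43). Per kb of annotated exons, Myh3 and Myh8 together made 2.34% to 9.94% of the myosins in the rich and 4.88% to 13.3% in the poor libraries. The long exon length of Myh8 lowers these shares. In the 12 middle libraries 1 of the 12 genes of this list had a positive slope on the score.

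In the lists for satellite cells and for wasting muscle few members passed. In the satellite cell list 1 of 5 tested members rose, Des, the intermediate filament that mature fibres also contain (349 to 586 CPM (median 456) against 119 to 257 CPM (median 152), log2 fold change 1.47, SE 0.177, adjusted p = 0.000334). Cdh15, the adhesion molecule of satellite cells, and Megf10, a receptor on them, overlapped and did not pass (adjusted p = 0.165 and 0.279). Pax7, their defining factor, and Myod1 did not pass the filter on low counts and were not tested. In the denervation and atrophy list 4 of 17 rose. Trim63, a ubiquitin ligase that tags sarcomere proteins, lay at 14.2 to 28.9 CPM (median 19.4) in the rich and 5.31 to 8.41 CPM (median 6.41) in the poor libraries, with no overlap (log2 fold change 1.57, SE 0.167, adjusted p = 0.000103). Mstn, the secreted brake on muscle growth, lay at 7.08 to 23.8 CPM (median 11.2) against 2.03 to 7.08 CPM (median 2.64) (log2 fold change 1.97, adjusted p = 0.0152), and Nmrk2, a kinase of NAD synthesis in muscle, had a log2 fold change of 1.68 (adjusted p = 0.0065). Fbxo32, the other main ligase of wasting, differed by 0.63 (adjusted p = 0.0295), a call that held without Ctrl 4, CMC 4, CMC 2, CMA 2 or CMA 1 and was lost without any 1 of the other 7 libraries (0.0502 to 0.0688). With the bandage as a term, Mstn (adjusted p = 0.24) and Nmrk2 (0.0722) no longer passed, nor did Fbxo32 (0.242). Without the filter on low counts Mstn (0.0633) and Fbxo32 (0.0693) did not pass. The other 13 members, among them Runx1, Gadd45a and Mt1, did not pass.

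Outside every list, 302 genes rose in the rich wounds and the 15 with the smallest p are described first. For those that fibres express, the difference again follows in part from the choice of sets. Fhl1 (chromosome X, 56731787 to 56793346), a LIM protein of the sarcomere and fibre growth, lay at 389 to 554 CPM (median 438) in the rich and 132 to 220.0 CPM (median 140.0) in the poor libraries (log2 fold change 1.54, SE 0.127, adjusted p = 5.42e-05). Tpm2 (chromosome 4, 43514711 to 43523765), a tropomyosin of thin filaments, lay at 467 to 728 CPM (median 599) against 212 to 295 CPM (median 225) (log2 fold change 1.31, SE 0.13, adjusted p = 6.99e-05). Both were separate between the sets.

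Several of these 15 genes make, move or remove proteins. Eef1a2 (chromosome 2, 181147653 to 181157014), the translation elongation factor that replaces Eef1a1 in muscle and neurons, lay at 49.5 to 85.3 CPM (median 62.3) against 13.1 to 23.3 CPM (median 17.2) (log2 fold change 1.8, SE 0.175, adjusted p = 8.54e-05). Rpl3l (chromosome 17, 24727820 to 24736143), the ribosomal protein that stands in for Rpl3 in heart and skeletal muscle, lay at 10.8 to 22.7 CPM (median 15.4) against 2.39 to 5.52 CPM (median 4.17) (1.93, SE 0.187, adjusted p = 6.99e-05). All rich libraries exceeded all poor ones for both. Fbxo40 (1.63) and Asb11 (1.94), both parts of ubiquitin ligases, and Agbl1 (1.68), an enzyme that trims glutamate chains from proteins, were separate as well.

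Others serve fuel storage and signalling. Ppp1r3c (chromosome 19, 36731731 to 36736653), which guides a phosphatase to glycogen, lay at 36.3 to 54.5 CPM (median 40.6) against 9.68 to 19.7 CPM (median 14.3) (log2 fold change 1.58, SE 0.152, adjusted p = 6.99e-05). Fitm1 (1.84), which helps to form lipid droplets in muscle, Pkia (1.13), an inhibitor of protein kinase A, Mylk4 (1.77), a kinase of the myosin light chain kinase family, and Lmcd1 (1.19), a LIM protein of heart and muscle, were likewise separate, as were Rtn2 (1.49), a reticulon of the endoplasmic reticulum, and Sh3bgr (1.83). Nctc1, a non-coding gene next to H19, had a log2 fold change of 1.72 (adjusted p = 0.000103). For all 15 the adjusted p lay between 5.42e-05 and 0.000128, the slope on the score in the 12 middle libraries was positive, from 0.46 to 2.72 log2 per score unit, and the call held under every alternative tried.

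2 further genes were chosen after their values were seen, for the size of their difference. Atp1b4, a muscle protein related to sodium pump subunits, lay at 3 to 11.4 CPM (median 5.4) in the rich and 0.442 to 1.84 CPM (median 0.77) in the poor libraries (log2 fold change 2.80, SE 0.371, adjusted p = 0.000527), yet its slope in the middle libraries was -0.25. Aqp4, the water channel of fast fibres and of astrocytes, lay at 2.76 to 8.99 CPM (median 5.69) against 0.478 to 1.88 CPM (median 0.79) (log2 fold change 2.49, SE 0.321, adjusted p = 0.000371), with a slope of 1.95 in the middle libraries.

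Every tested member of the 3 mitochondrial lists was higher in the rich wounds. Of the citrate cycle and beta oxidation list 24 of 24 members were higher and 8 rose, with a median log2 fold change of 0.22. Slc25a4 (chromosome 8, 46206797 to 46211284), the ATP carrier of heart and muscle mitochondria, lay at 265 to 418 CPM (median 315) against 164 to 191 CPM (median 174) (log2 fold change 0.86, SE 0.092, adjusted p = 0.000103). Idh3a, a subunit of isocitrate dehydrogenase, lay at 47.2 to 56.3 CPM (median 50.9) against 31.9 to 36.8 CPM (median 34.4) (0.57, SE 0.0571, adjusted p = 6.99e-05). Neither overlapped between the sets, although the differences were far smaller than those of fibre-specific genes.

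Of the nuclear-encoded respiratory chain 25 of 25 members were higher and 6 rose (median 0.19), among them Ndufv1, Sdhb, Uqcrc2, Uqcrfs1 and Cox5a. The calls of Ndufv1, Uqcrfs1 and Cox5a were lost without any 1 of 7, 9 and 9 of the 12 libraries: they held without CMA 3 and, for Ndufv1, without Ctrl 4, CMC 2, CMA 2 or CM0 3, for Uqcrfs1 without CMA 2 or CM0 3, and for Cox5a without CMC 2 or CMC 1. Sdhb, the iron-sulphur subunit of succinate dehydrogenase, lay at 61.6 to 75.2 CPM (median 63.7) against 47.2 to 55.9 CPM (median 52.1) (log2 fold change 0.34, SE 0.0612, adjusted p = 0.00595). From the mitochondrial genome 4 of 11 transcripts rose and 11 of 11 were higher (median 0.37). Of these mt-Co1, a core subunit of cytochrome oxidase, lay at 3461 to 4223 CPM (median 3796) against 2721 to 3039.8 CPM (median 2849.8) (log2 fold change 0.39, SE 0.0817, adjusted p = 0.0152), and mt-Cytb at 653 to 899.6 CPM (median 799.6) against 553 to 621 CPM (median 569.5) (0.41, SE 0.0826, adjusted p = 0.0118). With the bandage as a term the calls of Sdhb (adjusted p = 0.0837), Uqcrc2 (0.115), mt-Co1 (0.187), mt-Cytb (0.199) and mt-Nd4 (0.174) were lost, as were those of Ndufv1 (0.155), Uqcrfs1 (0.189) and Cox5a (0.302), whereas those of Slc25a4 and Idh3a held. Cox5a also lost its call without the filter on low counts (0.0934) and with RLE size factors (0.0531).

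Of the 14 genes of common glycolysis, which most cells share, 7 were higher and 7 lower, and 1 rose, Aldoa, the aldolase of muscle and many other cells, at 938 to 1253 CPM (median 1047) against 557 to 710.5 CPM (median 616) (log2 fold change 0.75, SE 0.0897, adjusted p = 0.000198), the value being that of its main gene entry. Several small heat shock proteins and chaperones of muscle rose. Hspb6 (30.6 to 49.9 CPM (median 40.7) against 9.58 to 17.7 CPM (median 12.9), log2 fold change 1.61, SE 0.155, adjusted p = 6.99e-05), Hspb7 (1.54, adjusted p = 0.00407), Hspb8 (0.56, adjusted p = 0.00807), Hspb3 (1.29, adjusted p = 0.0183), Cryab, which guards desmin and titin (0.98, adjusted p = 0.00381), and Unc45b, the chaperone that folds myosin (0.95, adjusted p = 0.0131), were the 6 of 14 called. With the bandage as a term Cryab (adjusted p = 0.0926), Hspb8 (0.0833) and Hspb3 (0.23) did not pass, and Hspb3 did not pass without Ctrl 2 (0.0506). Hspa1a, Hspa1b, Hsp90aa1, Hsph1 and Dnajb1, which most cells induce under stress, did not pass.

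For 18 pairs in which one gene serves muscle and a relative serves many cell types, the muscle form was compared with its relative; the pairs were picked after values of these data were known and are a description. The muscle forms had log2 fold changes of 0.64 to 1.93 (median 1.67), and their relatives of -0.69 to 0.09 (median -0.24), with 16 relatives lower and 2 higher. In 4 pairs the relative fell. Actg1, the actin of most cells, lay at 447 to 606 CPM (median 514) in the rich and 537 to 730.0 CPM (median 666) in the poor libraries (log2 fold change -0.37, SE 0.0908, adjusted p = 0.0433). Tpm4, a tropomyosin of the cytoskeleton, lay at 166 to 216 CPM (median 193) against 222 to 290.3 CPM (median 255) (-0.43, SE 0.0901, adjusted p = 0.0164). Atp2a2, the calcium pump of slow muscle, heart and other cells, lay at 265 to 293 CPM (median 280.1) against 318 to 342 CPM (median 322) (-0.24, SE 0.0536, adjusted p = 0.0228), with separate sets. Fhl2, a relative of Fhl1 in heart and activated cells, lay at 20.7 to 33.7 CPM (median 25.3) against 35.1 to 47.8 CPM (median 42) (-0.69, SE 0.108, adjusted p = 0.00167), again separate. Without any 1 of 10 of the 12 libraries Actg1 lost its call, CMC 2 and CM0 3 being the exceptions, and Atp2a2 lost its own without CM0 2, Ctrl 2, CMC 1, CM0 3, CMA 3 or CMA 1 (adjusted p = 0.0503 to 0.0736). With the bandage as a term only Fhl2 of these 4 passed. Rpl3 and Eef1a1, the common forms of Rpl3l and Eef1a2, had log2 fold changes of -0.13 and -0.12 and did not pass.

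**Figure D3:**
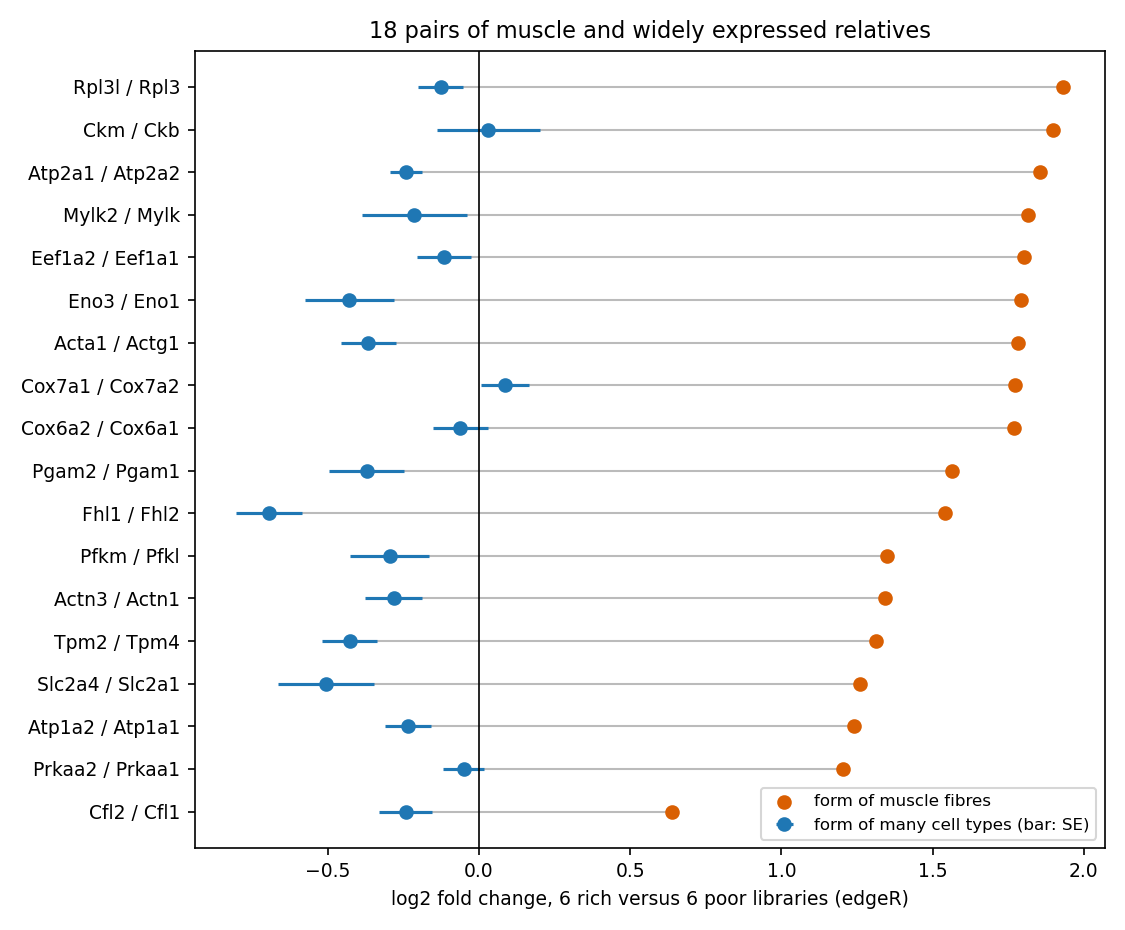
Each line joins the log2 fold change (6 rich against 6 poor libraries) of a gene of muscle fibres (orange) and of its widely expressed relative (blue, with SE) for 18 pairs. All orange points lie at 0.64 or above, and 16 of 18 blue points lie below 0.

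Fat genes were higher in the rich wounds, but nearly all did not pass as single genes. Of the adipocyte list 21 of 21 members were higher in the rich wounds (median log2 fold change 0.56) and 1 rose, Car3, a carbonic anhydrase abundant in both fat and slow muscle (669 to 1030.5 CPM (median 762) against 233 to 743 CPM (median 349), log2 fold change 1.03, SE 0.253, adjusted p = 0.0492). Its sets overlapped, and its call was lost without any 1 of 11 of the 12 libraries (adjusted p up to 0.118), CM0 3 being the exception, with the bandage as a term (0.145) and without the filter on low counts (0.169). Adipoq, the adiponectin of fat cells, lay at 83.8 to 187 CPM (median 129.8) against 52.1 to 93.4 CPM (median 79) (log2 fold change 0.76, adjusted p = 0.0635), and Plin4, a lipid droplet coat, at 270.0 to 528 CPM (median 408) against 161 to 298 CPM (median 235) (adjusted p = 0.0569); without Ctrl 4 both passed (0.0256 and 0.0255), without CM0 3 Plin4 did (0.0426), and both did in DESeq2, which called 6 of the 21. Among the 21 adipocyte genes 16 had an unadjusted p under 0.05, and 19 had a positive slope in the 12 middle libraries (median 0.56). The score of this list had r = 0.33 with the muscle score over the 24 libraries (adjusted p = 0.284, permutation test). Without the 2 libraries farthest from the median score r was 0.50, and the list did not pass there either. Of the brown fat list 2 of 6 rose. Cox8b, also a subunit of muscle cytochrome oxidase and counted among the muscle genes, had a log2 fold change of 1.8. Dio2, the enzyme that activates thyroid hormone in brown fat and muscle, lay at 10.6 to 18.8 CPM (median 12.2) against 5.02 to 8.74 CPM (median 7.54) (log2 fold change 0.89, SE 0.173, adjusted p = 0.00914, and 0.0638 with the bandage as a term), but had a slope of -0.88 in the middle libraries.

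Few genes of other contractile, vascular, nerve or immune cells passed. In the smooth muscle and pericyte list 1 of 14 rose, Synpo2, an actin-bundling protein of Z-discs as well as of smooth muscle (94.4 to 147 CPM (median 108) against 45.9 to 85.2 CPM (median 65.6), log2 fold change 0.76, SE 0.15, adjusted p = 0.0138), and 9 of 14 were lower. Without the filter on low counts Synpo2 did not pass (adjusted p = 0.056). Acta2, the smooth muscle actin, lay at 93.4 to 175 CPM (median 145) against 132 to 257 CPM (median 201) (log2 fold change -0.42, adjusted p = 0.293). Pecam1, of blood endothelium, had a log2 fold change of -0.16 (adjusted p = 0.597), Tnmd, of tendon, 0.08 (0.945), and Adgre1, of macrophages, -0.05 (0.937). Without some single libraries the signs of Tnmd and Adgre1 changed. In edgeR 0 members were called in the lists for blood endothelium, lymphatics, Schwann cells, tendon, resting fibroblasts, macrophages, T cells and mast cells, where 4, 0, 0, 1, 1, 1, 0 and 2 had an unadjusted p under 0.05 and DESeq2 called 0 as well. Over all genes, 2603 of 17168 had an unadjusted p under 0.05 in edgeR. DESeq2 called 586 genes higher and 234 lower.

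Fewer genes were called lower than higher in the rich wounds. Of the 72 called lower, 9 fell more than 2-fold, and the median log2 fold change was -0.43 against 1.03 for the 427 called higher. The number rested on single libraries: it was 42 without Ctrl 4, 29 without Ctrl 2, 132 without CMC 2, 193 without CMA 2, 47 without CM1 1, 37 without CMA 3 and 30 without CMA 1, 12 with the bandage as a term and 234 in DESeq2. The number called higher kept between 303 and 442 without any 1 library and was 245 with the bandage as a term, of which 240 were among the 427. That term leaves the comparison to the 9 libraries of bandages present in both sets.

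Fetub (chromosome 16, 22918334 to 22939778), a secreted protease inhibitor, lay at 2.34 to 5.68 CPM (median 3.3) in the rich and 10.7 to 16.7 CPM (median 12.9) in the poor libraries (log2 fold change -1.82, SE 0.222, adjusted p = 0.000246). Wfdc12, a small protease inhibitor of epithelia, lay at 0.24 to 2.69 CPM (median 0.71) against 3.89 to 6.19 CPM (median 4.33) (-2.05, SE 0.389, adjusted p = 0.00863), and Fabp5, the fatty acid carrier of keratinocytes, at 315 to 709.9 CPM (median 435) against 785 to 1095 CPM (median 890.1) (-0.94, SE 0.189, adjusted p = 0.0142). All 3 were separate between the sets. Serpinb6c (-1.22), a serine protease inhibitor, and Tmem45b (-1.61) also fell. Fabp5 and Tmem45b did not pass without the filter on low counts (adjusted p = 0.0734 and 0.0647). The list for cornified keratinocytes had 15 lower and 2 higher genes among 17 (median log2 fold change -0.42), and 0 passed in edgeR, with 7 at an unadjusted p under 0.05 and 3 called lower by DESeq2. Cornified envelope genes outside that list, chosen after their values were seen, fell: Lce3f from a median of 6.3 to 0.937 CPM (-1.99, adjusted p = 0.0223), Lce1g from 37 to 21.5 (-0.83, adjusted p = 0.0173) and Lce1e from 24.9 to 15.6 (-0.76, adjusted p = 0.0174). With the bandage as a term none of these 3 passed (0.106, 0.0781 and 0.206), without the filter on low counts Lce3f (0.0823) and Lce1g (0.0616) did not, and Lce3f held without CMC 2, CMA 2, CM0 3, CM1 1 or CMA 1 but lost its call without any 1 of the other 7 libraries (0.0504 to 0.066). In the middle libraries the slopes of Fetub, Wfdc12 and Lce1g were 1.01, 1.05 and 0.64, opposite in sign.

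The remaining named genes that fell belong to general cell work and moved little. Tubb2a (chromosome 13, 34074274 to 34078007), a beta tubulin, lay at 77.3 to 92.6 CPM (median 86.1) against 111 to 137 CPM (median 119.7) (log2 fold change -0.55, SE 0.0718, adjusted p = 0.000452), with separate sets. Cnn2, the calponin of non-muscle cells (-0.42), Traf6, a signalling adaptor of innate immunity (-0.40), Mapk6, an atypical MAP kinase (-0.41), Copb2, a coat protein of Golgi vesicles (-0.27), Ykt6, a vesicle fusion protein (-0.27), Prep, a peptidase (-0.26), Nt5dc2 (-0.43) and Ankrd13a (-0.30) also fell. With the bandage as a term Cnn2 (adjusted p = 0.064), Copb2 (0.126), Nt5dc2 (0.101), Prep (0.165), Traf6 (0.121), Ykt6 (0.236) and Tmem45b (0.142) no longer passed, and Prep did not pass without the filter on low counts (0.0519).

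Krt6a, Krt6b and Krt16, keratins of the activated wound edge, were lower in every rich wound than in any poor one, yet did not pass. Krt6b lay at 112 to 1004 CPM (median 391) in the rich and 1318 to 2553 CPM (median 1858) in the poor libraries (log2 fold change -1.93, SE 0.488, adjusted p = 0.0616). Krt6a lay at 92.5 to 626 CPM (median 262) against 873 to 1333 CPM (median 964) (-1.72, SE 0.458, adjusted p = 0.0795), and Krt16, their partner keratin, at 189 to 1008 CPM (median 299) against 1134 to 2092 CPM (median 1257) (-1.63, SE 0.444, adjusted p = 0.0843). All 17 members of the wound keratinocyte list were lower (median log2 fold change -1.12) and 0 passed in edgeR. Still, 14 had an unadjusted p under 0.05 and DESeq2 called 10. The score of this list overlapped, at 4.14 to 6.04 in the rich and 5.89 to 6.77 in the poor libraries. Without CMA 2, whose Krt6b was the highest of the rich set, Krt6b, Krt6a and Krt16 passed (adjusted p = 0.0298, 0.0353 and 0.0157), Krt6b did so without CMC 4 (0.0452), and all 3 did in DESeq2 (0.00157, 0.00421 and 0.0171). Krt6a and Krt6b are near-identical, and reads may be split between them. Krt14, of basal keratinocytes, lay at 1305 to 3698 CPM (median 1629) against 3167 to 4427 CPM (median 3846) (-0.95, SE 0.238, adjusted p = 0.0491) and lost its call without any 1 of 11 of the 12 libraries, CMA 2 being the exception, with the bandage as a term (0.138) and without the filter on low counts (0.181). It was the 1 member of 11 called in the basal keratinocyte list, where 5 were higher and 6 lower (median log2 fold change -0.05), 4 had an unadjusted p under 0.05 and DESeq2 called 2 lower.

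Of the granulation matrix list 22 of 25 members were lower, by a median of -0.19, and 0 passed in edgeR, with 2 at an unadjusted p under 0.05 and 1 called by DESeq2. Col12a1, a collagen on fibril surfaces, lay at 1733 to 3246 CPM (median 2265) against 2683 to 4057 CPM (median 3611) (log2 fold change -0.59, SE 0.175, adjusted p = 0.0995), and Col1a1 had a log2 fold change of -0.15 (adjusted p = 0.634). In the neutrophil list 8 of 9 were lower (median -1.01) and 0 passed, with 5 at an unadjusted p under 0.05 and 1 called by DESeq2, Cxcr2. Cxcr2, the chemokine receptor of neutrophils, lay at 1.44 to 6.73 CPM (median 2.97) against 3.83 to 16.1 CPM (median 7.82) (adjusted p = 0.127), and Mmp9, a protease of neutrophils and keratinocytes, at 12.2 to 66.3 CPM (median 35.1) against 36.6 to 186 CPM (median 105) (adjusted p = 0.161). Arg1, an arginase of repair macrophages and of epidermis, lay at 28.3 to 199.7 CPM (median 99.1) against 109.9 to 443 CPM (median 261) (log2 fold change -1.36, adjusted p = 0.243). Of the hypoxia list 12 of 12 were lower (median -0.19) and of the cytosolic ribosome 26 of 26 (median -0.13), with 0 called in either by edgeR or DESeq2 and 2 and 4 at an unadjusted p under 0.05. In the 12 middle libraries 1 of 12 hypoxia genes had a positive slope on the score (median -0.48). The ribosomal genes turned the other way there, with 26 of 26 slopes positive (median 0.26).

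The 12 middle libraries, which the rule left out of both sets, were fitted on the same score. Their scores spanned only 7.67 to 8.32. A slope on the score called 0 of 18879 genes in edgeR (0%). At an unadjusted p under 0.05 there were 614 genes, fewer than the 944 that chance alone would give. DESeq2 called 50 (0.205%), of which 49 were positive and 8 belonged to the muscle lists. In simulated counts this slope recovered 8.96% of 2-fold and 53% of 4-fold changes per score unit. Between the sets 71.6% of 2-fold and 100% of 4-fold changes were recovered. These sizes are not alike, since the middle libraries span less than a full score unit. Still, the direction carried over for the genes called higher: 381 of 427 (89.2%) had a positive slope, with a median of 0.46 log2 per score unit, against 49.9% of all genes. The 427 include 91 genes of the muscle lists, 5 of them score genes, whose slopes follow from the make-up of the score. Outside the muscle lists 294 of 336 (87.5%) had a positive slope, and outside all lists 261 of 302 (86.4%, median slope 0.41). Genes there that fibres express can follow the score in the same way, so these shares are no independent check. For the genes called lower the direction did not carry over, since 34 of 72 (47.2%) had a positive slope. Genes of the same libraries are not independent, so these shares are descriptions. Hspb6 had a slope of 1.12 (SE 0.331), Sdhb of 0.66 (SE 0.14), Eef1a2 of 0.79 (SE 0.293), Krt6b of 0.22 (SE 1.12) and Fetub of 1.01 (SE 1.03). Hair follicle genes had the steepest list median in these 12 libraries, with 9 of 9 slopes positive and a median of 10.96, and between the sets 9 of 9 were higher with 0 called by edgeR or DESeq2 and 0 at an unadjusted p under 0.05. Krt28, a keratin of the follicle's inner sheath, had there a log2 fold change of 1.06 (adjusted p = 0.732). Ctrl 3, the library with the highest score of the 12, stood apart in these genes: its hair follicle list score was 8.37, against at most 3.12 in the other 11, and its Krt28 was 202.6 CPM, against at most 9.88. In the fit without Ctrl 3, 0 genes were called higher and 0 lower, and its hair follicle slopes are not reported here.

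**Figure D4:**
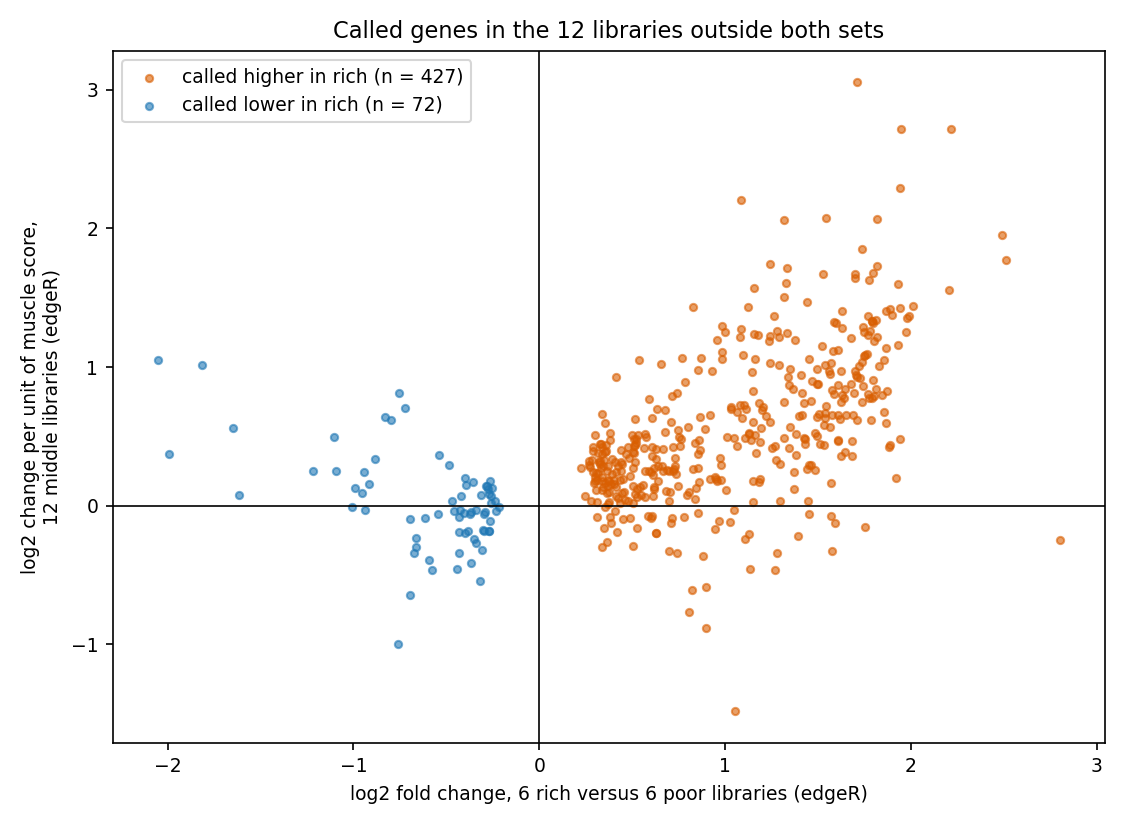
Each point is a gene called in the comparison of 6 rich and 6 poor libraries, with its log2 fold change there (x) and its log2 slope on the muscle score in the 12 other libraries (y). Of the 427 called higher (orange) 381 lie above 0 on the y axis, and of the 72 called lower (blue) 34 do.

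Scores of 39 other gene lists, each the mean log2 CPM of its members without any muscle-list gene, were set against the muscle score over the 24 libraries. In 7 lists the relation passed after adjustment over the 39 (permutation tests). List members that fibres express follow the score in part because fibre genes make it. For lists that hold such members, the p is no evidence about tissue other than muscle. Citrate cycle and beta oxidation had Pearson r = 0.76 (p = 2e-05, adjusted p = 0.00039) and Spearman rho = 0.79 (p = 1e-05, the smallest that the permutations give). The mitochondrial genome had r = 0.77 (p = 2e-05, adjusted p = 0.00039) and rho = 0.71 (p = 0.00025), and the nuclear respiratory chain r = 0.69 (p = 0.00016, adjusted p = 0.00125) and rho = 0.67 (p = 0.00036). Small heat shock proteins and chaperones had r = 0.74 (p = 4e-05, adjusted p = 0.00052) and rho = 0.72 (p = 0.00019). The denervation list had r = 0.65 (p = 0.00059, adjusted p = 0.00329) and rho = 0.68 (p = 0.00044), and the satellite cell list, which includes Des, r = 0.68 (p = 0.0003, adjusted p = 0.00195) and rho = 0.62 (p = 0.00166). The wound keratinocyte list ran the other way, with r = -0.68 (p = 9e-05, adjusted p = 0.000877) and rho = -0.61 (p = 0.0018).

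Without the 2 libraries farthest from the median score, r was 0.78 for the citrate cycle, 0.65 for the mitochondrial genome, 0.70 for the respiratory chain, 0.77 for the small heat shock list, 0.71 for denervation, 0.57 for satellite cells and -0.57 for wound keratinocytes, and all 7 lists still passed. After each library was centred on its bandage group, r was 0.81, 0.81, 0.77, 0.76, 0.61, 0.61 and -0.63 in the same order, and the granulation matrix list then passed as well (r = -0.52, adjusted p = 0.0496). Within the 12 middle libraries it was 0.57 for the citrate cycle and 0.61 for the respiratory chain but 0.07 for the mitochondrial genome, 0.10 for satellite cells and -0.03 for wound keratinocytes, and 0 of 39 lists passed. The neutrophil list had r = -0.50 (p = 0.0125, adjusted p = 0.061) and rho = -0.39. Its r was -0.22 without the 2 farthest libraries and -0.47 after centring on the bandage group. The embryonic and regenerating list had r = 0.45 (p = 0.0289, adjusted p = 0.102) and rho = 0.36, which the 12 middle libraries alone turned to r = -0.23.

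**Figure D5:**
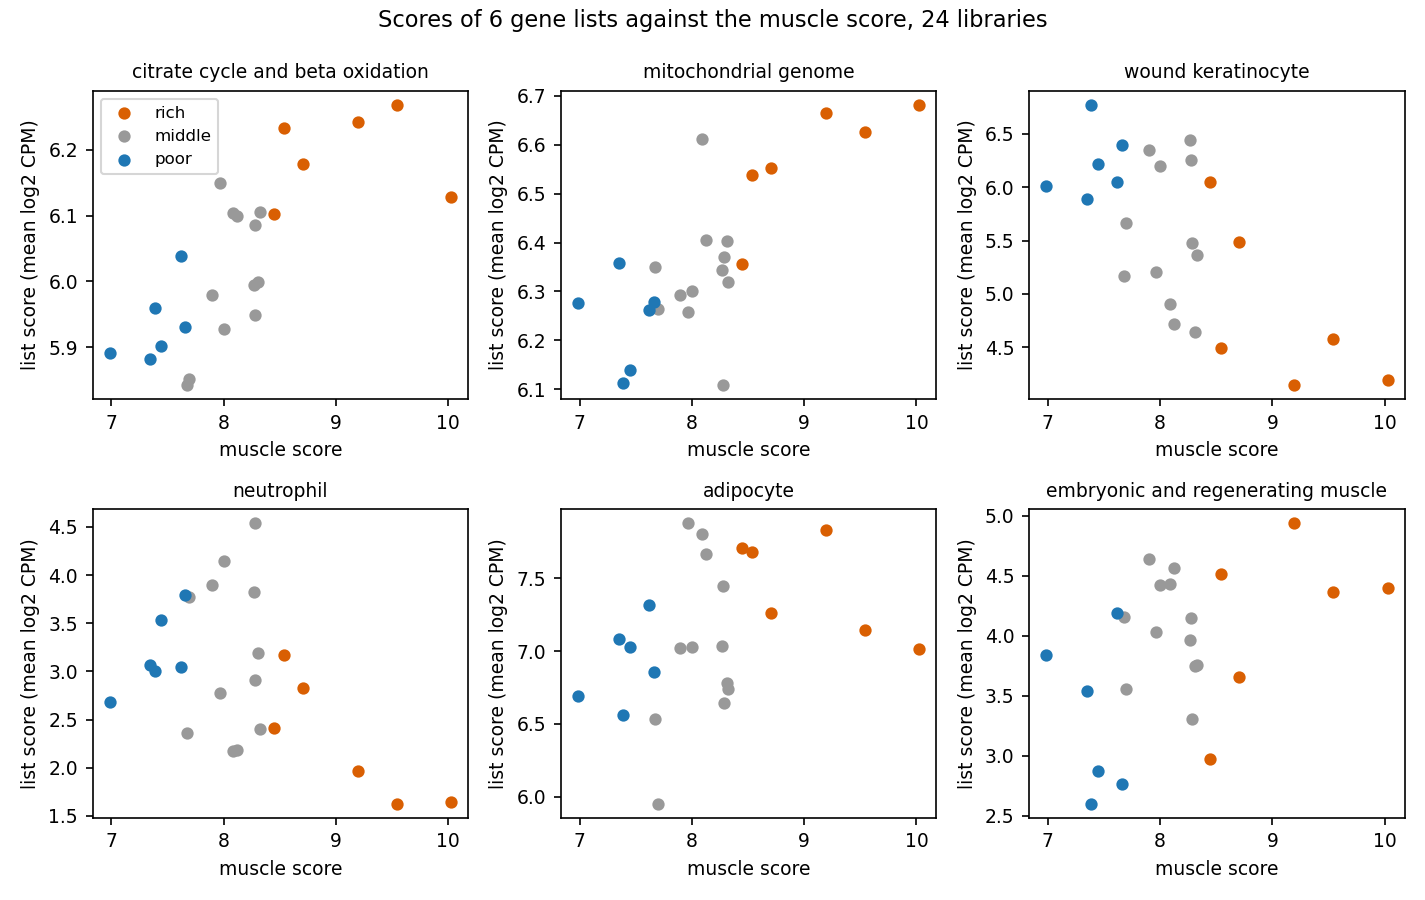
Each panel plots 1 gene list's score (mean log2 CPM, y) against the muscle score (x) for the 24 libraries, with rich libraries in orange, middle in grey and poor in blue. Mitochondrial lists climb with the muscle score, and the 4 lowest values of the wound keratinocyte list belong to rich libraries. The adipocyte and embryonic muscle lists scatter more widely (r = 0.33 and 0.45).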

How the data were processed

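Total RNA of 24 wounds was depleted of ribosomal RNA and sequenced with a kit that does not mark the strand, so a gene and its antisense partner cannot be told apart. The deposited values are whole read counts per gene and library; per the submitters' processing notes the authors used bcl2fastq 2.17, FastQC, cutadapt, STAR, featureCounts and DESeq2 with GRCm38, while no source used here names their annotation release. Symbols and coordinates came from a GRCm38 annotation for 54165 of 54232 gene entries.

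CPM used each library's total count. Sets are called separate where their CPM ranges do not overlap. The share of all genes with separate sets is not reported here, so separation is a description. The 6 highest and 6 lowest libraries by score were compared with edgeR 4.0.16 in R 4.3.3 (default filter on low counts, TMM scaling, robust quasi-likelihood test, Benjamini-Hochberg adjustment over all genes tested, threshold 0.05). The same test gave the slope on the score in the 12 middle libraries and on the myosin ratio. Fold changes, SE and adjusted p come from these fits, and adjusted p marked as DESeq2 from DESeq2 1.42.0. Score and list-score relations used permutation tests (100000 resamples) or exact ones, and list scores used log2(CPM + 0.5). The tests were tried on simulated data: 52.2%, 71.6% and 100% of genes changed 1.5-fold, 2-fold and 4-fold were recovered between the sets.

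The sets, gene lists and tests were chosen with earlier results of these data known. Named by rule were the 6 score genes, in each list the 4 members with the highest mean CPM (muscle lists) or the 3 with the smallest p (other lists), the 15 genes in no list with the smallest p in each direction at a mean of at least 2 CPM, and a panel of 20 markers; other named genes were chosen after their values were seen, and a few genes the rule names are not reported here. Each library is 1 mouse as labelled, and replicate numbers follow deposit order. Alternatives were other size factors, no filter, the bandage as a term, library sizes without muscle genes, each library left out, and DESeq2.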

Additional observations from a re-analysis of the deposited data

Results flagged for a closer look

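In 55 sets of libraries (the muscle score in each bandage group, and the score genes and the marker panel in the rich and in the poor set), 4 values stood far from the rest of their set; chance alone gives about 1 in 20 sets. Values are log2(CPM + 1). Myh7, the slow myosin, was 0.149 in CMC 1 (0.109 CPM in a library of 9186670 counts) and at 0 in the other 5 poor libraries. Pax7, the satellite cell factor, was 0.164 in CMA 2, the lowest of the rich set. The Myh7 and Pax7 values lie at the floor of counting, where very few reads decide them. Col1a1, the collagen of granulation tissue, was 15.1 in CMA 1, the highest of the poor set. Pecam1, of blood endothelium, was 7.13 in CM1 1, also the highest of the poor set.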

How the results depend on the processing

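No paired analysis was possible because the labels give no replicate numbers shared between bandage groups. The number of genes called higher in the rich wounds (427) was 245 with the bandage as a term and 303 to 442 without any 1 library. The number called lower (72) was 12 with the bandage as a term, 234 in DESeq2 and 29 to 193 without any 1 library. In the middle libraries 34 genes were called higher without the filter on low counts, and DESeq2 called 49 higher and 1 lower, against 0 in edgeR. Of 7 lists that followed the score, 0 did so in the 12 middle libraries alone, where the embryonic muscle list turned to r = -0.23 and the neutrophil list to 0.018. Along the myosin ratio 6 genes became 3 without the filter, 2 with the bandage as a term, 0 without the 2 farthest libraries and 54 in DESeq2. Signs turned for genes that did not pass: Tnmd to -0.24 with the bandage as a term and, without any 1 library, between -0.066 and 0.24; Adgre1 between -0.16 and 0.061. The difference of CM0 from Ctrl in muscle score lay between -0.53 and 0.13 without any 1 library. Of 65 called genes named by the rule or in the text 32 passed under every alternative, and none changed sign. For counts that changed with a setting the cause was not tested, except that the bandage term leaves fewer libraries to compare. Genes below the filter on low counts, such as Pax7, were left out of the comparison.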
